A study of Mus musculus with 240 samples.

Results

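The genes described here are 2 RAS GTPases, Nras and Hras, and 6 RAS GTPase-activating proteins, Nf1, Rasa1, Rasa2, Rasa3, Rasal1 and Rasal2. They were taken by symbol from the table of gene counts, and all 8 are among its 34623 genes. Further RAS family genes were not analysed here, except those in the pathway lists given later. The study collected cells labelled as oligodendrocyte precursor cells (OPCs, the dividing glial progenitors of the brain) from mouse brain by laser capture microdissection and sequenced their RNA in 240 libraries. Bulk samples were compared between wild-type mice (WT) and mice of genotype Trp53-/- Nf1-/- (called CKO in the sample names) at 12, 90 and 150 days after the start of tamoxifen treatment (dpi). The CKO samples at 150 dpi were labelled as brain tumor cells and are called tumours here. All bulk sample names carry the tag tdTpositive, WT included. There were 7 CKO and 5 WT mice at 12 dpi, 7 CKO and 5 WT mice at 90 dpi, and 7 tumour-bearing and 6 WT mice at 150 dpi, with both sexes in every group. The small samples all came from Trp53-/- Nf1-/- mice at 12 and 90 dpi. They comprised 112 libraries of 10 cells and 80 libraries labelled as pool-and-split controls. The labels give neither the mice's age, nor the driver of the Cre recombinase, nor which exons of Nf1 are deleted, so the gene-level Nf1 count may include exons outside the deletion.

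RAS proteins are small GTPases that relay growth factor signals while they hold GTP. Exchange factors load them with GTP, and GTPase-activating proteins (GAPs) speed up GTP hydrolysis and so switch them off. Neurofibromin, the product of Nf1, is such a GAP and a tumour suppressor whose loss, together with that of p53, is a classical way to induce glioma from OPCs in mice. Active RAS binds RAF kinases, which start the MEK and ERK kinase cascade.

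The coordinates of the genes are those of GRCm38, and each value is a count over the exons of a whole gene. Nf1 (ENSMUSG00000020716) lies at chr11:79339693-79581612 on the plus strand. Rasa1 (ENSMUSG00000021549), which encodes p120 RasGAP, lies at chr13:85214780-85289130 on the minus strand. Rasa2 (ENSMUSG00000032413) at chr9:96539300-96631617 and Rasa3 (ENSMUSG00000031453) at chr8:13566948-13677603, both on the minus strand, encode GAPs of the GAP1 family. Rasal1 (ENSMUSG00000029602) at chr5:120648812-120679597 on the plus strand belongs to the same family. Rasal2 (ENSMUSG00000070565) at chr1:157135182-157412595 on the minus strand encodes a further RAS GAP. Nras (ENSMUSG00000027852) lies at chr3:103058285-103067914 on the plus strand and Hras (ENSMUSG00000025499) at chr7:141189105-141194005 on the minus strand. No transcript of another gene matched a member at 95% identity or more over 50% or more of the shorter transcript. Exons of Rasal2 share 244 bases with 2810025M15Rik on the opposite strand, and those of Rasa1 share 12 bases with Ccnh.

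Promoter sequence is shown for 3 GAP genes that were lower and did not overlap with WT in tumours, and for Nras, which was higher there. Each stretch comes from the RefSeq promoter table (GRCm38.p6), ends before both the RefSeq and the Ensembl gene start, and is written 5′ to 3′ on the strand of the gene. They are Rasa1 at chr13:85289487-85289736, Rasa2 at chr9:96631618-96631753, Rasal2 at chr1:157412596-157412845 and Nras at chr3:103058035-103058284. Capitals mark whole matches, on either strand, to any of 4 motifs: the GC box GGGCGG, the ETS core CCGGAAG, the cyclic AMP response element TGACGTCA and the E-box CACGTG.
Rasa1: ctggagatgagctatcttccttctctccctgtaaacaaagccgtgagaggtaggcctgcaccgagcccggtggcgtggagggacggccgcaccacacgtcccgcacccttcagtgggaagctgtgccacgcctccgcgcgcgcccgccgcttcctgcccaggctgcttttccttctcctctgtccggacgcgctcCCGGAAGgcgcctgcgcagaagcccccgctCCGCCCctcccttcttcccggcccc
Rasa2: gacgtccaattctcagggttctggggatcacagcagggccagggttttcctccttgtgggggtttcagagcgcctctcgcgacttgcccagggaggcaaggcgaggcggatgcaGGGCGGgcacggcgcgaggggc
Rasal2: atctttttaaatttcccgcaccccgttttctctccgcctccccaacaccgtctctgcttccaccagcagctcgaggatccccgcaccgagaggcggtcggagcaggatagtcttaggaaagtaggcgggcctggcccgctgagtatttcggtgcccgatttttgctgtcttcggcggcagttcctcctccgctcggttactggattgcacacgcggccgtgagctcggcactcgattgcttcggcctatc
Nras: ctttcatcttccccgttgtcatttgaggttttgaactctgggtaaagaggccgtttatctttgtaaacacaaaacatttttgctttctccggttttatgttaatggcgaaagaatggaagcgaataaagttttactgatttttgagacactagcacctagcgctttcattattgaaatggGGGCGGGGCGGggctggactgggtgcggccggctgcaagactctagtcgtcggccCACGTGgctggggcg
In the 250 bases before the RefSeq start, Rasa1 held 1 GC box and 1 ETS core, Rasa2 held 2 GC boxes, and Nras held 2 GC boxes that share a base and 1 E-box. Rasal2 held no match. For comparison, the GC box was found in 32.7% of 32851 mouse promoter windows of that length, the ETS core in 6.91%, the E-box in 6.02% and the cyclic AMP response element in 1.55%. The Rasa1 and Rasa2 windows were 68.8% and 71.2% G or C, that of Rasal2 59.6% and that of Nras 48.4%, with a median of 52.4% over all windows. No motif of the 4 occurred in all 3 GAP promoters. The second GC box of Rasa2 lies beyond the stretch printed. A match in these letters describes the sequence only and is not a binding site. RefSeq promoters were matched for 7 of the 8 genes, all but Rasal1.

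Total counts were 0.0937 to 23.2 M (1 M being 1000000) per bulk library (median 10.0), 1.64 to 6.49 M per 10-cell library (median 4.24) and 1.91 to 5.16 M per pool-and-split library (median 3.80). The shallowest bulk mouse, WT_21167 at 90 dpi, had 93694 counts in all, of which 31 fell on Nf1, 11 on Nras, 2 on Hras and 0 on Rasal1. Of the 37 bulk mice, 11, among them all 7 with tumours, had 2 bulk libraries each, which were summed per mouse. The 2 libraries of mouse CKO_20647 at 90 dpi were the least alike of these pairs, with a correlation of log2(CPM + 1) across genes of 0.76 against 0.925 to 0.984 in the 10 other pairs. Its second library had 336.9 CPM (counts per 1000000 counts) of Nf1 against 180.1 in the first, 105.6 against 347.5 of Rasa1, 28.3 against 184.3 of Rasa3 and 9.08 against 1.55 of Rasal1. Summed markers of neurons were at 18570 against 8210 CPM in those libraries, of astrocytes at 9272 against 3518, of OPCs at 1348 against 2597 and of oligodendrocytes at 368.8 against 2813. Results that this library moved most are therefore given with and without it.

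The labelled cell type was checked against 10 markers each of OPCs, neurons, astrocytes, oligodendrocytes and microglia, 10 of endothelium and 8 of pericytes. OPC markers summed to 1979 to 4003 CPM in mice without tumours and to 5334 to 13374 in tumours. Neuron markers summed to 6886 to 13336 in the former, above the OPC markers in every such group, and to 282 to 1433 in tumours. Microglia markers summed to 105 to 272 outside tumours and to 276 to 1430 in them, oligodendrocyte markers to 1580 to 4693 and 424 to 1924, and astrocyte markers to 2803 to 6365 and 1358 to 3886. No marker was at 0 in all mice of a group. In bulk samples, fewer cells of a type and less RNA per cell cannot be told apart, and the part that these marker changes have in the results below was not tested.

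The targeted gene was examined first. From here on CPM were scaled for library composition, except in marker sums, values of single libraries and limits at a count of 0. Nf1 was at 261, 284, 310, 348 and 357 CPM in the 5 WT mice at 12 dpi and at 176 to 216 (median 181) in the 7 CKO mice. Every CKO mouse was below every WT mouse at that time. The mean was 191 ± 16.1 (SD, n = 7) against 312 ± 41.2 CPM (SD, n = 5). Nf1 was 1.59-fold lower, at -0.67 on the log2 scale (SE 0.14, 95% interval -0.95 to -0.39). Among all 16349 genes tested, 0.606% were lower without overlap in this comparison. With the discordant library left in, the change did not pass the threshold of 0.05 after Benjamini-Hochberg adjustment over all genes (edgeR adjusted p = 0.0918). Without that library, which is from another group but enters the shared estimate of spread, the log2 change was -0.68 and the adjusted p 0.0121.

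At 90 dpi Nf1 was at 274, 281, 294, 306 and 343 CPM in WT mice and at 150 to 302 (median 177) in CKO mice. The highest CKO value belonged to mouse CKO_20647, and the next was 205, below every WT mouse. The log2 change was -0.62 (SE 0.14, edgeR adjusted p = 0.145), and -0.75 without the discordant library (adjusted p = 0.0022). In tumours Nf1 was at 150 to 273 CPM (median 217) and in WT mice at 150 dpi at 252 to 355 (median 290), so that the groups overlapped. Nf1 fell by 0.47 on the log2 scale there (SE 0.13, adjusted p = 0.0035). The call was lost under RLE scaling (-0.31, adjusted p = 0.0532) and in a fit on these 2 groups alone (-0.43, adjusted p = 0.0922). Nf1 counts were present in every mutant mouse, and the fitted levels were 1.39-fold to 1.59-fold below WT over the 3 times. Tumours and CKO mice at 90 dpi differed in Nf1 by 0.11 (95% interval -0.14 to 0.37, adjusted p = 0.482), and by 0.25 without the discordant library (adjusted p = 0.0661).

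**Figure D1:**
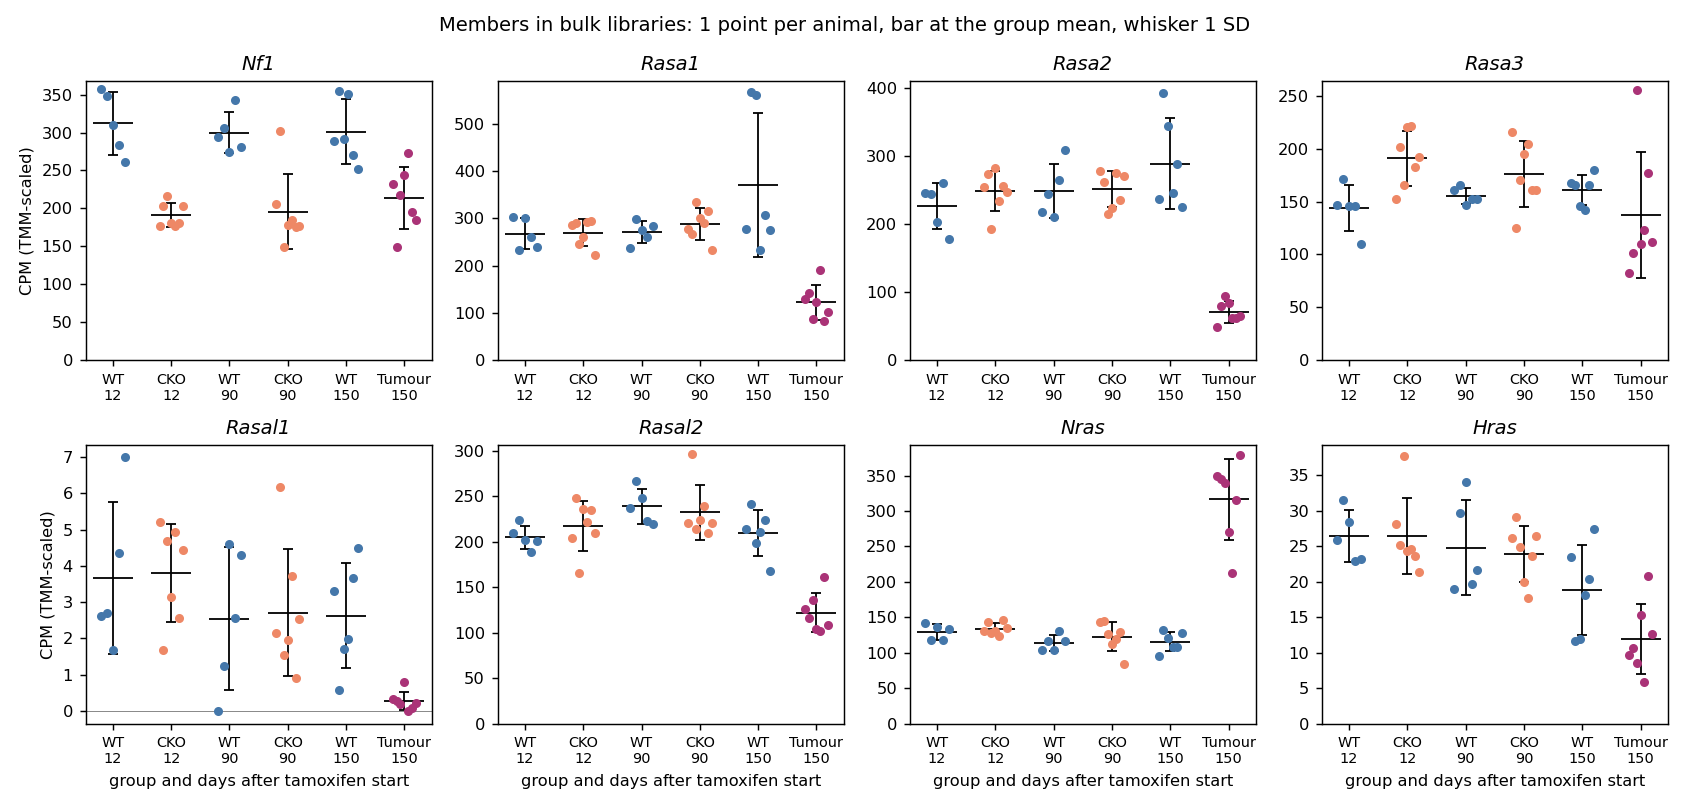
Level of each of the 8 genes in every bulk mouse, in CPM on a linear axis from 0, by genotype and days after the start of tamoxifen; each point is 1 mouse, each bar the group mean and each whisker 1 SD. Nras in the 7 tumours (213 to 379 CPM) lies above all other mice (84.1 to 146), and Rasa2 in tumours (48.4 to 93.9) lies below the WT mice at 150 dpi (225 to 393).

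With all libraries kept, no member passed the test between CKO and WT mice at 12 or 90 dpi. At 12 dpi 0 of 8 members passed, against 0.0183% of all genes, and 2 of 8 had an unadjusted p under 0.05, against 4.85% of all genes. Those were Nf1 and Rasa3. Rasa3 was at 110, 146, 146, 147 and 172 CPM in WT mice and at 153 to 222 (median 192) in CKO mice, overlapping in part, with a log2 change of 0.39 (SE 0.19, adjusted p = 0.999). At 90 dpi 0 of 8 passed, against 0.0489% of all genes, and Nf1 alone had an unadjusted p under 0.05, against 5.20% of all genes. DESeq2, used as an alternative test, called 1 member at each time, which was Nf1. In the same comparisons all 10 endothelial markers had negative log2 changes, 0 of them called (medians -0.46 at 12 dpi and -0.67 at 90 dpi). Of the 8 pericyte markers 7 were negative at 12 dpi (median -0.22, 0 called) and 8 at 90 dpi (median -1.28, 1 called). Their part in the members' values was not tested.

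The other members had close means in the mutant and WT mice. Rasa1 was at 270 ± 28.1 CPM in CKO and 268 ± 32.8 in WT mice at 12 dpi, and its log2 change had a 95% interval of -0.32 to 0.42. Rasa2 was at 248 ± 29.2 and 226 ± 34.1 CPM (interval -0.14 to 0.46). Nras was at 134 ± 8.02 and 129 ± 11.4 CPM (interval -0.20 to 0.33), and Rasal2 at 217 ± 27.4 and 205 ± 12.9 (interval -0.17 to 0.34). Low Hras, at 26.4 ± 5.37 and 26.4 ± 3.67 CPM, had an interval of -0.51 to 0.43, and Rasal1, at 3.80 ± 1.35 and 3.67 ± 2.09 CPM, one of -0.96 to 1.11, the widest among the members. These are SDs with n = 7 CKO and n = 5 WT mice. At 90 dpi the widest of these intervals again belonged to Rasal1 (-1.23 to 0.88) and those of Rasa2 (-0.30 to 0.31) and Rasal2 (-0.30 to 0.22) were centred near 0. Without the discordant library the log2 change of Rasal1 at 90 dpi was -0.64 (SE 0.49), beside -0.17 with it (SE 0.52), and did not pass either way.

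No member passed the test over time within a genotype. That held for CKO mice at 90 against 12 dpi (0% of all genes called), WT mice at 90 against 12 dpi (0.00612%) and WT mice at 150 against 90 dpi (0.0183%), and DESeq2 called no member in these either. An unadjusted p under 0.05 was reached by 0 of 8 members in each of the 3, against 4.26%, 4.86% and 8.26% of all genes. In WT mice at 150 dpi Rasa1 was higher in mice WT_21591 (567 CPM) and WT_21592 (562 CPM) than in the other 4 (233 to 308), and the log2 change from 90 dpi was 0.37 (95% interval -0.02 to 0.77). For the change in the CKO to WT difference from 12 to 90 dpi, 0 of 8 members passed (0% of all genes), and 0 of 8 had an unadjusted p under 0.05 (3.60% of all genes).

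Tumours differed from WT mice at 150 dpi in 7 of the 8 members, 1 higher and 6 lower, against 46.2% of all genes called (24.3% higher and 21.9% lower). The median log2 change of the members was -0.72, beside 0.06 for all genes. RLE scaling moved that median of all genes to 0.22 and changed the direction of no member called. Nras, a RAS GTPase, was the member that rose. Its level was 213 to 379 CPM (median 340) in tumours and 96.1 to 133 (median 115) in WT mice. All 7 tumours were above all 30 mice without tumours, in which Nras ranged from 84.1 to 146 CPM. The means were 316 ± 56.6 (SD, n = 7) and 116 ± 13.7 CPM (SD, n = 6). Nras was 2.75-fold higher, by 1.46 on the log2 scale (SE 0.13, edgeR adjusted p = 8.8e-12). Hras, the other RAS GTPase, went the opposite way. It was at 5.81 to 20.8 CPM (median 10.6) in tumours and at 11.6 to 27.4 (median 19.2) in WT mice, which overlapped, and it fell by 0.67 on the log2 scale (SE 0.22, adjusted p = 0.0121). The Hras call was lost without mouse WT_22064 (-0.49, adjusted p = 0.0884) and in a fit on these 2 groups alone (-0.63, adjusted p = 0.125).

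Among the GAPs, Rasa2 had the lowest adjusted p. It was at 48.4 to 93.9 CPM (median 64.6) in tumours and at 225 to 393 (median 266) in WT mice, with a wide gap between the groups. The means were 70.5 ± 15.7 (SD, n = 7) and 288 ± 67.1 CPM (SD, n = 6), and Rasa2 fell by 2.01 on the log2 scale (SE 0.14, adjusted p = 4.2e-14), 4.03-fold lower. Rasa1 was at 83.2 to 190 CPM (median 122.6) in tumours and at 233 to 567 (median 292) in WT mice. These groups did not overlap either, and Rasa1 fell by 1.58 (SE 0.18, adjusted p = 2.3e-09), 2.99-fold lower. Rasal2 was at 102 to 161 CPM (median 116) in tumours and 168 to 242 (median 212) in WT mice, and fell by 0.78 (SE 0.12, adjusted p = 1.3e-06), again without overlap. Rasa1, Rasa2 and Rasal2 were thus lower without overlap and Nras higher, against 8.96% and 6.72% of all genes.

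Rasal1 was scarce in every group. Its level was 0 to 0.790 CPM (median 0.226) in tumours and 0.580 to 4.49 (median 2.65) in WT mice, and only the ends of the groups overlapped. It fell by 3.14 on the log2 scale (SE 0.54, adjusted p = 9.7e-06). In the tumour with no Rasal1 count, mouse Tumor_21256, the depth allows up to 0.611 CPM (3 counts), within the range of the other tumours. Rasa3 was the member that did not pass. It was at 82.2 to 256 CPM (median 111) in tumours and at 142 to 180 (median 166) in WT mice, with a log2 change of -0.24 (SE 0.18, adjusted p = 0.265). Tumour Tumor_16840 had the highest value of all, 256 CPM. Without that tumour the log2 change of Rasa3 was -0.41 and passed (adjusted p = 0.022).

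In the same tumours, 9 of 10 neuron markers were lower and 0 higher than in WT mice, 9 of 10 OPC markers and 9 of 10 microglia markers were higher, and 6 of 10 oligodendrocyte markers were lower with 1 higher. Of the astrocyte markers 4 of 10 were higher and 4 lower, of the pericyte markers 5 of 8 were lower and 0 higher (median log2 change -1.30), and of the endothelial markers 2 of 10 were lower and 0 higher (median -0.55). The part of these markers in the members' changes was not tested.

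**Figure D2:**
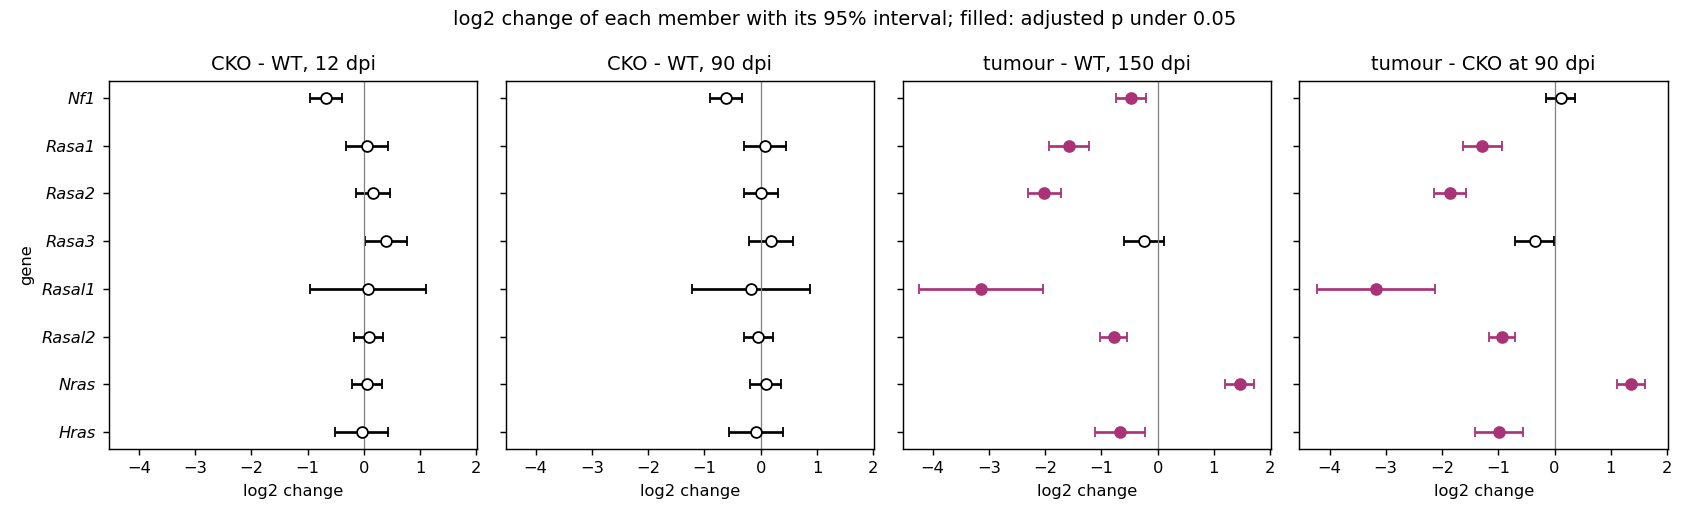
Log2 change of each of the 8 genes in 4 bulk comparisons, 1 panel each, with 95% intervals from edgeR; filled points passed the adjusted threshold of 0.05. For CKO against WT, changes cluster near 0 apart from Nf1 (-0.67 at 12 and -0.62 at 90 dpi) and Rasa3 at 12 dpi. That of Rasa3 was 0.39 (interval 0.01 to 0.77) and did not pass. For tumours against WT, changes spread from -3.14 (Rasal1) to 1.46 (Nras).

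Against the CKO mice at 90 dpi, which carry the same genotype, 6 of 8 members passed, 1 higher and 5 lower, with 49.1% of all genes called (26.4% higher, 22.6% lower). This comparison shares the tumours with the previous one, so the values are given side by side and not as separate support. Nras was at 84.1 to 144 CPM (median 127) in those mice, and its log2 change in tumours was 1.36 (adjusted p = 9.6e-12), beside 1.46 against WT. Rasa2, at 214 to 278 CPM (median 262) in CKO mice, changed by -1.86 (adjusted p = 1.5e-13), beside -2.01. Rasa1 changed by -1.28 (adjusted p = 8.5e-08), beside -1.58, and Rasal2 by -0.93 (adjusted p = 1.8e-08), beside -0.78. Rasal1 changed by -3.18 (adjusted p = 3.8e-06), beside -3.14, and by -2.68 without the discordant library (adjusted p = 2.0e-05). Hras changed by -0.99 (adjusted p = 1.7e-04), beside -0.67. Rasa3 did not pass with the discordant library of mouse CKO_20647 (-0.35, adjusted p = 0.0783) and passed without it (-0.43, adjusted p = 0.0274), or without tumour Tumor_16840 (-0.57, adjusted p = 0.0014). Nras was higher without overlap, and Rasa1, Rasa2, Rasal1 and Rasal2 lower, against 6.77% and 10.5% of all genes.

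The difference between CKO and WT at 150 dpi was then tested against that at 90 dpi, as an interaction of genotype and time. Its mutant samples are tumours at the later time and OPCs at the earlier one, so that time and tumour cannot be told apart. It passed in 5 of 8 members, 1 higher and 4 lower, against 30.0% of all genes (14.2% higher, 15.8% lower). Of all genes called there, 47.2% were higher, and 57.3% under RLE scaling. Nras had an interaction of 1.37 on the log2 scale (SE 0.18, adjusted p = 2.7e-07), Rasa2 one of -2.02 (SE 0.21, adjusted p = 1.4e-09) and Rasa1 one of -1.66 (SE 0.26, adjusted p = 4.2e-06). Rasal1 (-2.97, SE 0.76, adjusted p = 0.0026, and -2.46 with adjusted p = 0.0072 without the discordant library) and Rasal2 (-0.74, SE 0.17, adjusted p = 0.0012) passed too. Nf1 had an interaction of 0.15 (95% interval -0.24 to 0.55, adjusted p = 0.608), Hras one of -0.58 (adjusted p = 0.187) and Rasa3 one of -0.43 (adjusted p = 0.223, and -0.58 with adjusted p = 0.0381 without tumour Tumor_16840).

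To compare genes with each other, levels were divided by the length of each gene's combined exons, in CPM per kb. In WT mice at 150 dpi the order was Rasa1 at 81.2 ± 33.4, Rasa2 at 49.6 ± 11.5, Rasa3 at 36.6 ± 3.28, Nras at 25.9 ± 3.07, Nf1 at 25.2 ± 3.55, Rasal2 at 20.9 ± 2.50, Hras at 6.06 ± 2.03 and Rasal1 at 0.786 ± 0.434 (SD, n = 6). In this order Rasa1 and Rasa2, Rasa2 and Rasa3, Nras and Nf1, and Nf1 and Rasal2 did not differ by more than the sum of their SDs, whereas Rasa3 and Nras, Rasal2 and Hras, and Hras and Rasal1 did. In tumours Nras came first at 70.7 ± 12.7, above Rasa3 at 31.2 ± 13.6, Rasa1 at 26.8 ± 8.11, Nf1 at 17.9 ± 3.44, Rasal2 at 12.1 ± 2.12, Rasa2 at 12.1 ± 2.69, Hras at 3.84 ± 1.59 and Rasal1 at 0.0808 ± 0.0766 CPM per kb (SD, n = 7). There the gaps between Nras and Rasa3, Nf1 and Rasal2, Rasa2 and Hras, and Hras and Rasal1 exceeded the sum of the SDs, and those between Rasa3 and Rasa1, Rasa1 and Nf1, and Rasal2 and Rasa2 did not. Nras thus stood at the fourth place among the members in WT mice and at the first in tumours.

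For 7 of the members, the genes most like each were taken as the 2 with the highest correlation of log2 CPM over the 37 mice. These correlations describe samples that share the step between tumours and other mice, so each is given again over the 30 mice without tumours. Those mice still include both genotypes, so the lower Nf1 of CKO mice enters the values of Nf1 there. Rasa2 went with Kalrn (r = 0.97, 0.72 without tumours) and A830018L16Rik (0.97 and 0.66). Rasa1 went with Serpini1 (0.96 and 0.86) and Rasgef1a (0.96 and 0.90), the latter annotated as an exchange factor of the RAS superfamily. Nras went with Lmx1b (0.93) and Hoxa3 (0.92), both developmental transcription factors, and these fell to 0.35 and 0.32 without tumours. Rasal1 went with Tesc (0.88 and 0.75) and Tmem125 (0.87 and 0.76), Hras with Ift22 (0.89 and 0.67) and Chchd6 (0.89 and 0.68), and Rasa3 with Fam163a (0.79 and 0.46) and Mrps5 (0.74 and 0.53). Nf1 had the weakest best match, Gm8822 (0.72 and 0.76), then Vcp-rs (0.66 and 0.67). Within the members, Rasa1 and Rasa2 correlated at 0.86 over all mice and at 0.60 without tumours, and Rasa2 and Nras at -0.88 and 0.04.

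The other genes of the pathway, 57 in 7 lists, were tested in the same fit. Before tumours, 0 of 57 passed between CKO and WT mice at 12 or 90 dpi, beside 0.0183% and 0.0489% of all genes. In tumours against WT mice 20 of 57 were higher and 20 lower, with a median log2 change of 0.05. The 14 genes of ERK output, which are induced by or feed back on the cascade, gave 9 higher and 3 lower (median 1.31). Ccnd1, the cyclin D1 gene, rose most in the lists, from 41.8 ± 9.32 to 1014 ± 845 CPM (log2 change 4.61, SE 0.42, adjusted p = 2.4e-11), and Ier3, an immediate early gene, rose by 3.22 (adjusted p = 8.1e-09). The 9 genes of the RAF, MEK and ERK kinases gave 1 higher and 6 lower (median -1.20). Map2k1, which encodes MEK1, fell from 958 ± 413 to 68.1 ± 35.0 CPM, by 3.82 on the log2 scale (SE 0.31, adjusted p = 9.1e-13).

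The 8 exchange factors, which act on RAS in the direction opposite to the GAPs, gave 1 higher and 4 lower (median -1.92). Rasgrp1 fell from 960 ± 165 to 46.8 ± 18.2 CPM, by 4.37 (SE 0.19, adjusted p = 1.2e-19), and Rasgrf2 from 183 ± 17.5 to 11.4 ± 5.12 CPM, by 4.01 (SE 0.21, adjusted p = 8.3e-18). Of the 4 other RAS GAPs, 2 were higher and 1 was lower. Rasal3 rose by 3.56 (SE 0.63, adjusted p = 1.6e-05) from 0.618 ± 0.448 to 7.77 ± 4.40 CPM. Dab2ip and Rasa4 are named after their values were seen. Dab2ip rose by 0.83 (adjusted p = 3.8e-04) and Rasa4 had a change of 0.49 (adjusted p = 0.505). The 12 adaptors and regulators gave 5 higher and 2 lower, the 5 lipid-modifying enzymes and chaperone genes 1 and 2, and the 5 other RAS-subfamily GTPases 1 and 2. The 20 higher and 20 lower of 57 stand beside 24.3% and 21.9% of all genes. Neuron markers fell in the same samples, from 7326 to 10014 CPM in sum in WT mice to 282 to 1433 in tumours, and their part in the lower genes was not tested.

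**Figure D3:**
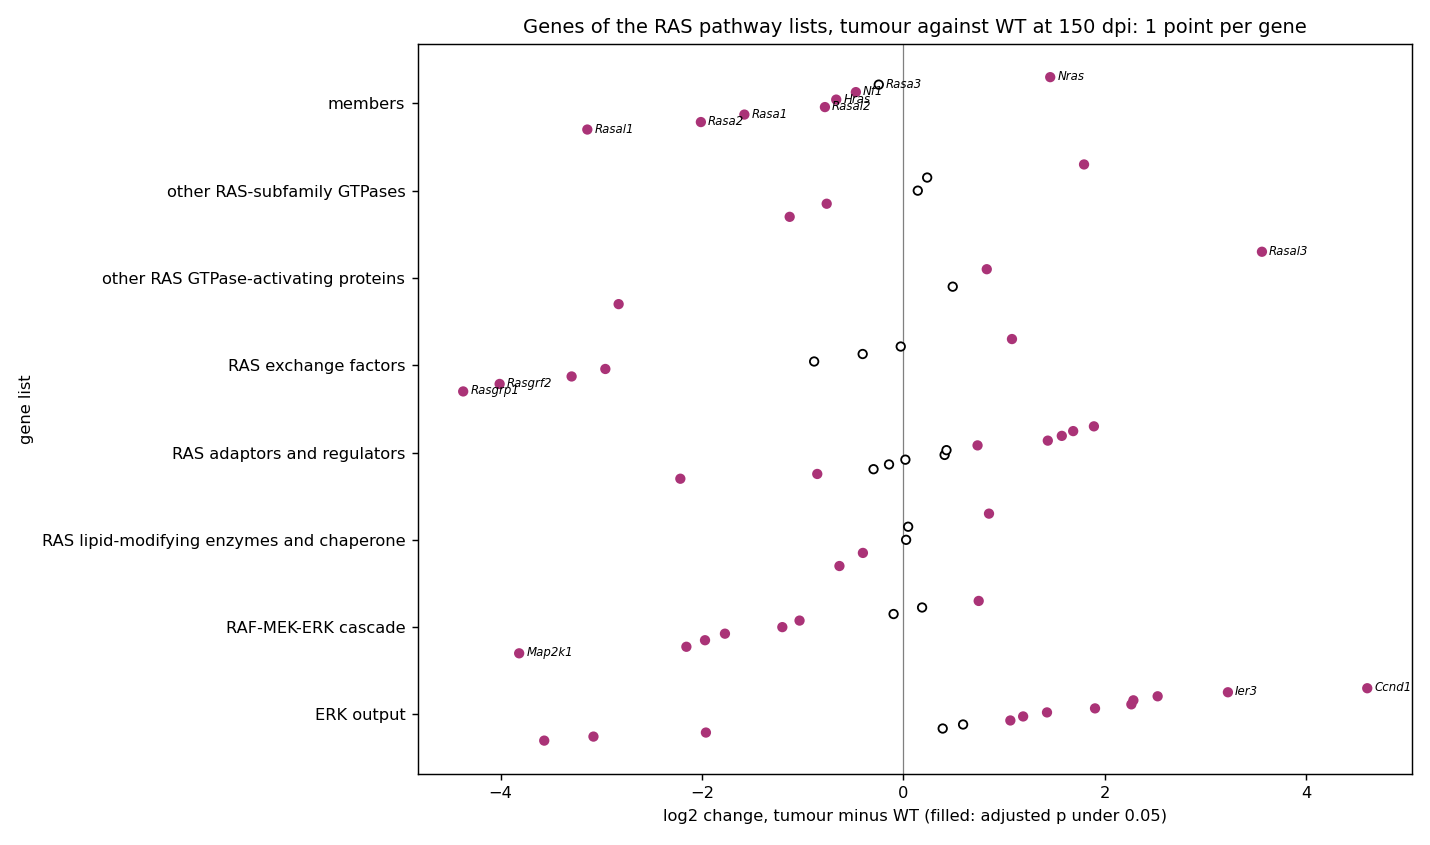
Log2 change between tumours and WT mice at 150 dpi for the 8 members and the 57 further pathway genes, 1 point per gene, grouped by list; filled points passed the adjusted threshold of 0.05. The exchange factors (median -1.92) and the RAF, MEK and ERK kinases (median -1.20) lie mostly below 0, and the genes of ERK output (median 1.31) mostly above.

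Against CKO mice at 90 dpi, 21 of 57 pathway genes were higher and 21 lower, beside 26.4% and 22.6% of all genes. Ccnd1 (3.73), Rasal3 (2.99) and Ier3 (2.81) had the largest log2 rises, and Rasgrp1 (-4.34), Rasgrf2 (-3.82) and Dusp5 (-3.62), which encodes an ERK phosphatase, the largest falls. The interaction of genotype and time at 150 against 90 dpi passed in 14 of 57 upward and 18 downward, beside 14.2% and 15.8% of all genes. Rasal3 (3.90), Ccnd1 (3.83) and Ier3 (3.37) led upward, and Rasgrp1 (-4.43), Map2k1 (-4.21) and Rasgrf2 (-3.84) downward. In the other bulk comparisons 0 of 57 passed, beside 0% to 0.0489% of all genes.

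The small libraries show the same genes in 10 cells at a time, all from Trp53-/- Nf1-/- mice, so that the Nf1 deletion could not be checked there against WT. They were made by PCR from polyadenylated RNA, and the bulk libraries by linear amplification of total RNA, so levels are not compared between them. Libraries were summed in 8 sets of each kind, 4 per time, a set being the sex and number in the sample name. What the number stands for is not stated in the labels, and p-values over sets measure the spread between sets only. In 10-cell sets at 12 and 90 dpi, OPC markers summed to medians of 653.6 and 836.1 CPM. Those of neurons were at 3311 and 2478, of astrocytes at 2511 and 3365, and of oligodendrocytes at 1275 and 3815. Pericyte markers were at 2171 and 1670, endothelial ones at 1025 and 855.7, and microglia ones at 349.9 and 668.1. The part of these markers in the values below was not tested. In 10-cell libraries Rasa1 had at least 1 count in 48 of 56 libraries at 12 dpi and 54 of 56 at 90 dpi, Hras in 45 and 54, Rasa3 in 48 and 52, Nras in 42 and 55, and Rasa2 in 41 and 51. Rasal2 was detected in 28 and 45 of 56, Nf1 in 23 and 33, and Rasal1 in 9 and 18. All 8 members were detected more often at 90 dpi. The median number of all genes detected per 10-cell library also went from 7550 to 10110, with a median depth of 4.48 and 4.04 M counts, and its part in these counts was not tested.

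In the pool-and-split libraries, detection went from 17 to 24 of 40 for Nf1, from 37 to 39 for Rasa1, from 32 to 40 for Nras and from 7 to 11 for Rasal1. Rasa2 (39 and 39), Rasal2 (17 and 17) and Hras (40 and 40) kept their number, and Rasa3 went from 39 to 34. The median number of genes detected there was 8690 at 12 dpi and 8739 at 90 dpi. All 8 members were found together in 3 of 56 10-cell libraries at 12 dpi and 8 of 56 at 90 dpi. A 10-cell library at 12 dpi held 1 to 8 members (median 6), and one at 90 dpi held 4 to 8 (median 7).

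Between 90 and 12 dpi 0 of 8 members passed over the sets, in either kind of library (0% of all genes called in both). With 4 sets per time the 95% intervals of the log2 change were wide. In 10-cell sets the narrowest was that of Hras (-0.41 to 1.505) and the widest that of Nf1 (-4.22 to 2.88). Rasa3 was at 183, 326, 177 and 387 CPM in the 4 sets of 10-cell libraries at 12 dpi and at 74.0, 53.1, 239 and 42.9 CPM in those at 90 dpi. At 90 dpi 3 of the 4 sets were below all sets of 12 dpi, and the fourth fell among them. Its log2 change was -1.50 (SE 0.57, adjusted p = 0.664). Rasal1 was at 0.126, 0, 2.61 and 2.07 CPM at 12 dpi and at 0.111, 1.40, 3.73 and 55.4 CPM at 90 dpi, where a single set was high (log2 change 3.59, SE 1.38, adjusted p = 0.664). These were the 2 members with an unadjusted p under 0.05 in 10-cell sets, against 7.13% of all genes. None reached it in pool-and-split sets, against 7.83% of all genes, and DESeq2 called 0 members in both.

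Hras had the highest level per kb among the members in 10-cell sets at 90 dpi and in pool-and-split sets at both times. It was at 219, 285, 269 and 184 CPM in the 10-cell sets at 90 dpi and at 298, 128, 67.3 and 183 CPM at 12 dpi. Per kb it averaged 77.1 ± 14.9 CPM at 90 dpi (SD, n = 4), followed by Rasa3 at 23.2 ± 20.9, and at 12 dpi Rasa3 at 60.9 ± 23.8 and Hras at 54.5 ± 31.6 did not differ beyond their spread. Nras, at 18.5, 19.1, 38.1 and 31.8 CPM in the sets at 90 dpi and at 19.5, 27.9, 16.9 and 4.66 at 12 dpi, overlapped between the times.

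Several set values came mostly from 1 library. Shares are of the summed CPM of a set's libraries, which were not scaled for library composition, unlike the set values. Nf1 in a female 10-cell set at 12 dpi (148 CPM) drew 95.1% of that sum from 1 library at 1547 CPM. The other 3 sets were at 0.536, 7.47 and 0.477 CPM. In the pool-and-split set of the same name Nf1 was at 238 CPM, with 99.9% of the summed CPM from 1 library at 2632 CPM. Nras in a male pool-and-split set at 12 dpi was at 289 CPM, 95.6% from 1 library, and at 10.7 to 11.9 CPM in the other 3. The median share of a set's summed CPM in its highest library was 28.9% for Rasa1 and 31.1% for Hras, and 62.2% for Nf1, 64.8% for Rasal2 and 77.7% for Rasal1.

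**Figure D4:**
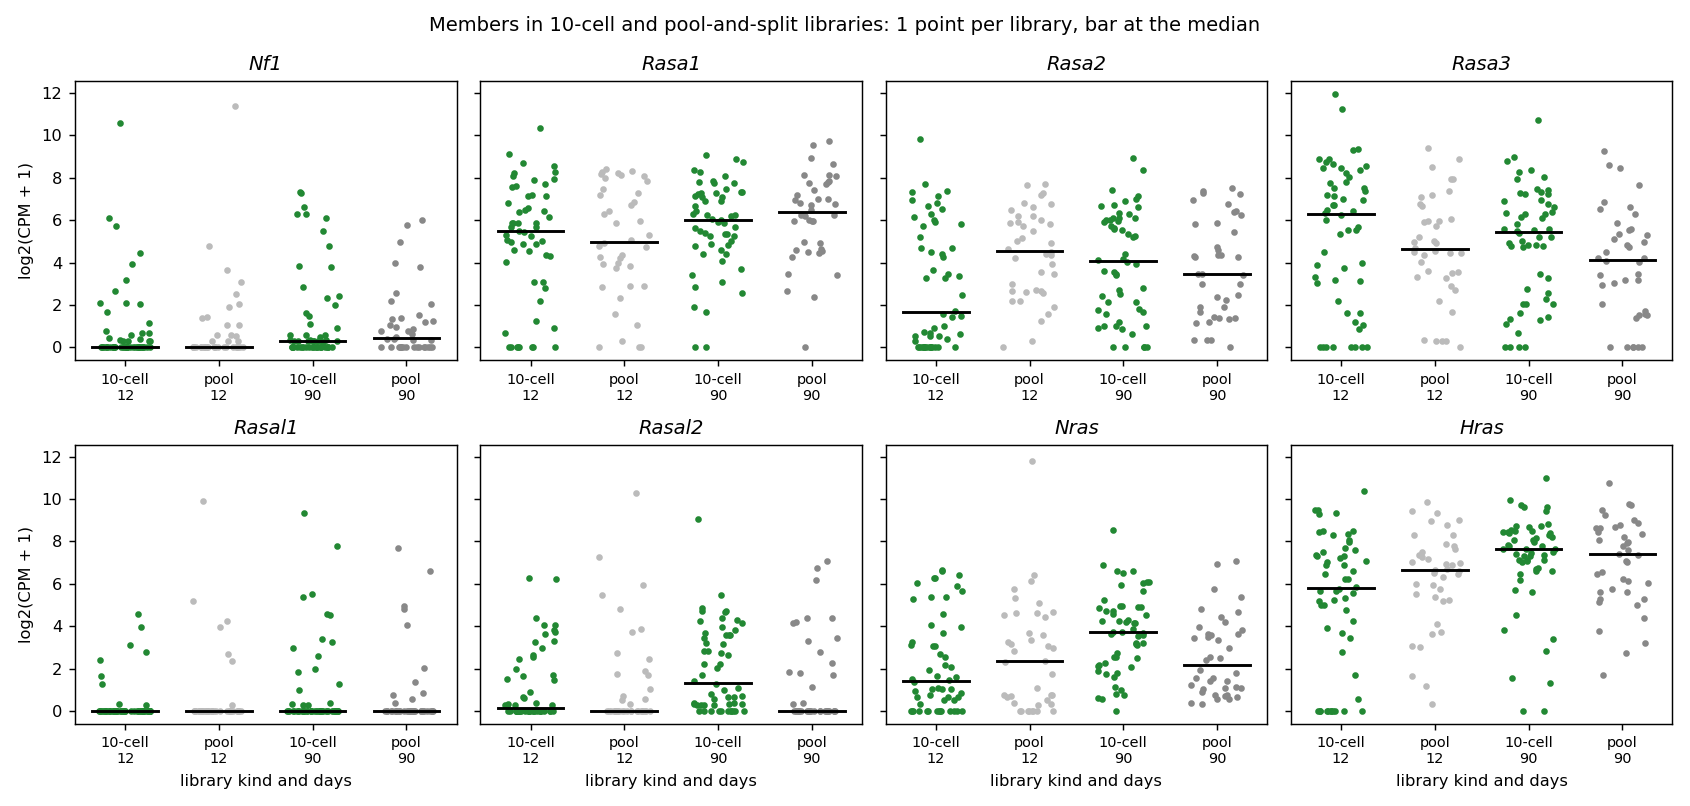
Level of each of the 8 genes in the 10-cell and pool-and-split libraries at 12 and 90 dpi, as log2(CPM + 1), with 1 point per library and a bar at the median. Rasa1 and Hras were detected in most libraries, whereas Nf1, Rasal1 and Rasal2 were at 0 in many and reached high values in a few (Nf1 up to 1547 CPM in 10-cell libraries at 12 dpi).

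The pool-and-split libraries serve as controls for the variation that the method adds, so the spread of log2(CPM + 1) within sets was compared between them and the 10-cell libraries. The units of this test were the 96 single libraries of a time, although they come from 4 sets of each kind. Its intervals and p-values therefore measure the spread between libraries and not that between sets. At 12 dpi 5 members could be tested and 0 passed, against 0.0254% of all genes. An unadjusted limma p under 0.05 was reached by 3 of the 5, namely Rasa2, Rasa3 and Hras. No share over all genes is given here for that count. Rasa2 had a spread larger by 1.10 in 10-cell libraries (95% interval 0.37 to 1.82, limma adjusted p = 0.338), with SDs of 2.75 to 2.99 in the 4 sets against 1.73 to 1.97 in the pool-and-split sets. It was larger in 4 of 4 sets, as it was for Rasa3 (0.99, adjusted p = 0.420) and Hras (0.94, adjusted p = 0.460), and the median over all genes was 0.16. For Rasa3 the SDs of the second female set were nearly equal, 3.545 against 3.534. Under 2 other ways of computing the spread the difference for Rasa2 passed: 1.99 with a pseudocount of 0.1 (adjusted p = 0.0371) and 1.19 as the deviation from the mean (adjusted p = 0.0059). At 90 dpi 7 members were tested and 0 passed, against 0.621% of all genes, none of them with an unadjusted p under 0.05. The difference for Rasa2 there was 0.07 (95% interval -0.52 to 0.65). At 12 dpi Rasa2 was detected in 73.2% of 10-cell libraries, against 97.5% of the controls, and at 90 dpi in 91.1% against 97.5%. The shares at 12 dpi were 85.7% against 97.5% for Rasa3 and 80.4% against 100% for Hras. For Rasa1 (85.7% against 92.5%) and Nras (75.0% against 80.0%) the spread differed by 0.02 and -0.13. Libraries at 0 enter the spread, and the part of detection in these differences was not tested.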

How the data were processed

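RNA was measured in laser-captured cells, from 10 µm sections for bulk and 8 µm sections for small samples per the labels' protocols. The deposited values are expected counts per gene, which the authors made with RSEM and Bowtie2 on GRCm38, per the submitters' processing notes. Tool versions and strandedness are not given in the sources used here. The values were rounded to whole counts, and 92 spike-in rows were left out. Counts per 1000000 (CPM) used TMM library sizes in edgeR 4.0.16 (R 4.3.3). Libraries of 1 mouse, or of 1 set, were summed.

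Bulk comparisons used edgeR's quasi-likelihood test on 37 mice in 6 groups with sex as a covariate, after filterByExpr (minimum count 10, minimum total 15), with Benjamini-Hochberg adjustment over 16349 genes and a threshold of 0.05. Sets of 10-cell and pool-and-split libraries were tested alike over 14500 and 13408 genes. Spread was tested with limma 3.58.1 on absolute deviations of log2(CPM + 1) from the set median, with single libraries as units. It covered genes detected in at least 50% of libraries. Intervals are 95%. DESeq2 1.42.0, RLE scaling, other filters, the deepest library per mouse, a fit on the compared groups alone and leaving out each mouse or set were alternatives. The fits were also run on simulated data, and the outcome is not reported here. No 2 libraries of a group held identical values, and the labels give no batch. Transcript copies were searched with blastn 2.17.0 and figures drawn with matplotlib 3.10.9.

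The text names all 8 members, for each comparison the 3 largest rises and falls among called pathway genes, and the 2 genes most like each member. Some results that these rules give are not reported here. Members, lists and rules were chosen with earlier results of these data known. Numbers in the names of small sets were checked for pairing over time and gave none. p-values measure the spread between these samples.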

Additional observations from a re-analysis of the deposited data

Results flagged for a closer look

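Of 80 groups of 4 to 10 mice or sets in which the members' CPM were examined, 14 held a value that stood far from the rest of its group. In each case it was the highest value. The cut-off is set to flag about 1 in 20 groups of normally distributed values. CPM need not follow that distribution, so no excess over chance is read from this count. In bulk samples mouse CKO_20647 at 90 dpi was highest in Nf1 (301.6 CPM, the next mouse at 205.2) and in Rasal2 (297.2, next 239.9), and is the mouse whose 2 libraries were least alike. Tumour Tumor_16844 was highest in Rasal1 (0.7896 CPM, next 0.3295), and mouse CKO_22017 at 12 dpi in Hras (37.68, next 28.16).

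Among 10-cell sets at 12 dpi, the second female set stood apart in Nf1 (148.3 CPM, next 7.473) and Rasa2 (100.5, next 43.79), and the first female set in Rasal2 (13.9, next 3.3). At 90 dpi the first male set stood apart in Rasa3 (239.1 CPM, next 73.99), and the second male set in Rasal1 (55.36, next 3.73) and Rasal2 (41.52, next 8.738). Among pool-and-split sets at 12 dpi, Nf1 was high in the second female set (238.5 CPM, next 4.287), Rasal2 in the first female set (152.4, next 17.94), and Rasal1 (73.06, next 4.654) and Nras (288.7, next 11.9) in the first male set.

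The difference between mutant and WT mice was not the same at 150 dpi, where the mutant samples are tumours, as at 90 dpi in 5 members, by the interaction test in edgeR. On the log2 scale it was -1.657 for Rasa1, -2.021 for Rasa2, -2.969 for Rasal1, -0.7394 for Rasal2 and 1.37 for Nras.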

How the results depend on the processing

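Single members' values under the alternatives numbered 3573. Of these 3550 kept their side of the threshold, 4 lost the call, 19 gained one and 0 that had been called changed sign. Among the 3550, 132 values that were called in neither fit had the other sign. Between CKO and WT, 1 member in place of 0 was called at 12 dpi with DESeq2, with the deepest library of each mouse, in a fit on these groups alone and without 1 library of mouse CKO_20647 (an alternative chosen after seeing the data). At 90 dpi 1 was called under the same settings except the fit on these groups alone. Leaving out each mouse in turn gave 0 to 1 at both times, 1 without mouse CKO_20647 or tumour Tumor_16839. For tumours against WT, 4 members were called in a fit on these groups alone, in which Rasal1 was not tested, and 6 to 8 when each mouse was left out. Counts were 6 to 7 against CKO mice at 90 dpi and 5 to 6 for the interaction when each mouse was left out. Under the 8 other alternatives they were 5 to 7 and 4 to 5. The spread at 12 dpi gave 1 call with a pseudocount of 0.1 and 1 as the deviation from the mean, and 0 to 0 without each set. Sets of the same name at 12 and 90 dpi were compared by their deviations from the mean of their time, over the tested genes. These deviations, not the levels themselves, correlated at -0.039 to 0.018. Such sets are not known to share more than a sex and a number. With a replicate block, 0 members were called in 10-cell sets and 0 in pool-and-split sets. Over all genes, calls differed by over 1.5 times with DESeq2 in the comparisons with few calls: 273 against 0 in 10-cell sets, 501 against 0 in pool-and-split sets, 16 against 3 between CKO and WT at 12 dpi and 19 against 8 at 90 dpi. A fit on the compared groups alone gave 92 against 3 at 12 dpi and 295 against 1 for WT mice at 90 against 12 dpi, and each library as a replicate gave 251 in 10-cell and 239 in pool-and-split sets. The causes were not tested. Depth limits Rasal1 in bulk, where 1 WT mouse allows up to 32.0 CPM at a count of 0. Nf1, Rasal1 and Rasal2 were at 0 in many small libraries, and the part of depth in this was not tested.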
